A study of Aquilaria sinensis with 2 samples.

Results

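The study's assembly grouped stem transcripts of *Aquilaria sinensis*, the tree whose wounded wood yields agarwood, into clusters of similar sequences. Within 39 of these clusters, at least 1 transcript was at least 2-fold more abundant after wounding. At least 1 of its sister transcripts was at least 2-fold less abundant. The transcripts are unigenes, the sequences assembled from the reads of both libraries, and unigenes that share a cluster number are called sisters here. A unigene was kept if it had 20 or more reads over both libraries, and Cluster64407 was left out by the same rule. Each kept unigene was given a ratio, its share of the reads in the wounded library (W) divided by its share in the healthy library (H), with 0.5 reads added to both counts. Members were chosen by this ratio alone, 2 or more against 0.5 or less within 1 cluster, and a cluster that holds both is called opposed. This gave 110 members, 66 higher and 44 lower in W, out of 8341 kept unigenes and 89137 unigenes in all. Since the same reads chose the members, their ratios are given as a description and were not tested.

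The stems came from 3-year-old trees and made up 2 libraries, sequenced in 1 run. For W, stems had been pruned with a knife and pieces cut 6 cm under the cut surface after 2, 4, 6, 8, 12 and 24 h and after 3 and 5 d, and the 8 collections were pooled in equal parts, so a transcript that was high at 1 time and low at another shows only its average. For H, RNA from stems of healthy trees was pooled. Each condition was thus 1 library, no difference has a replicate check, and differences between pools of trees, between preparations of cDNA and between conditions cannot be told apart. In pooled stems fewer cells of a type and less RNA per cell cannot be told apart either. The reads counted in unigenes were 423466 in W and 432265 in H. The middle of the transcripts lay slightly above a ratio of 1, at 0.17 on the log2 scale for the median of the 16286 unigenes that had at least 10 reads and were found in W and in H. The ratios below are not corrected for this shift. W and H mean, throughout, the libraries labelled wounded and healthy, and every direction follows these labels. The unigenes with a gene name in the expression assays allow a partial look at the labels. Of 28 such unigenes, 14 had a 95% interval wholly below 1 and 2, noxB and CDPK1, wholly above 1, and the intervals of the rest held 1. The counts of noxB, an NADPH oxidase, were 18 in W and 2 in H, a ratio of 9.19 (2.20 to 81.6). Those of CDPK1 were 54 and 35, with a lower bound of only 1.01, not corrected for the shift above. AOSC, named for allene oxide synthase, which acts in the making of jasmonate, had 18 reads in W against 174 in H, and HMGR, an enzyme early in the mevalonate pathway, had 9 against 131, although in other plants such as tomato and potato genes of both kinds are induced by wounding. AsFPS, which makes the precursor of sesquiterpenes, had 4 reads in W against 74 in H. In the paper's own expression assays, wounding of stems raised the transcripts of HMGR, FPS and DXPS, another enzyme of sesquiterpene synthesis. Those assays compared stems 5 d after pruning with healthy stems as means of 3 biological determinations, whereas W pooled 8 times in 1 library. The paper also lists fewer wounded than healthy reads for HMGR, FPS and the sesquiterpene synthases. In the counts used here HMGR and AsFPS thus ran opposite to those assays, though times and samples differed, and DXPS had 14 reads in W and 13 in H. AOSC, HMGR and AsFPS were chosen after their values were seen, and whether the labels of the libraries hold was not tested. Stem markers were not checked.

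Plant genes often exist as families of similar copies, which arise by duplication and can come to be expressed in different tissues or under different stresses. A single gene can also give several transcripts through alternative splicing or alternative ends, and the alleles of a gene can differ in sequence. In a transcriptome assembled without a genome, any of these can appear as separate contigs in 1 cluster, and so can a single transcript broken into parts or split by sequencing errors. Wounding of a stem sets off defence and repair, in which ethylene, jasmonate and reactive oxygen act as signals and enzymes of secondary metabolism are made. In this assembly, UIcluster grouped similar sequences, and Cap3 then merged those that overlapped by at least 100 bases with at least 95% identity. Sisters are therefore related sequences that this second step left apart, and which of the cases above applies to any cluster was not tested. Their base sequences were not analysed here.

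The 39 clusters were 4.60% of the 848 clusters that had 2 or more kept unigenes and so could hold both directions. In the remaining 809 such clusters, 98 held 2 or more unigenes of ratio 2 or more and none of 0.5 or less, and 84 held 2 or more of 0.5 or less and none of 2 or more. Of all kept unigenes, 13.4% had a ratio of 2 or more and 20.5% had a ratio of 0.5 or less. Inside the 39 clusters, which held 522 kept unigenes, the 66 higher members were 12.6% and the 44 lower members 8.43%. In the other 809 clusters these shares were 12.6% and 7.77%. The rule requires at least 1 member in each direction in an opposed cluster, so nothing is read from these shares. Of the 4370 kept unigenes that were alone in their cluster, 14.2% had a ratio of 2 or more and 32.0% a ratio of 0.5 or less.

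Opposed clusters are described here by their number of kept unigenes. A cluster with more of them has more chances to hold both directions under the rule, so the order of these shares is not a finding. Both directions were present in 7 of 401 clusters with 2 kept unigenes (1.75%), in 7 of 261 with 3 to 5 (2.68%) and in 8 of 117 with 6 to 10 (6.84%). They were present in 10 of 50 clusters with 11 to 20 kept unigenes (20%) and in 7 of 19 with more than 20 (36.8%). The share of kept unigenes with a ratio of 0.5 or less ran the other way, at 20.9% in clusters with 2 kept unigenes and 1.29% in clusters with more than 20. The share with a ratio of 2 or more was 14.6% and 8.72% in the same classes. Each of the 7 opposed clusters with more than 20 kept unigenes had only 1 or 2 lower members.

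**Figure D1:**
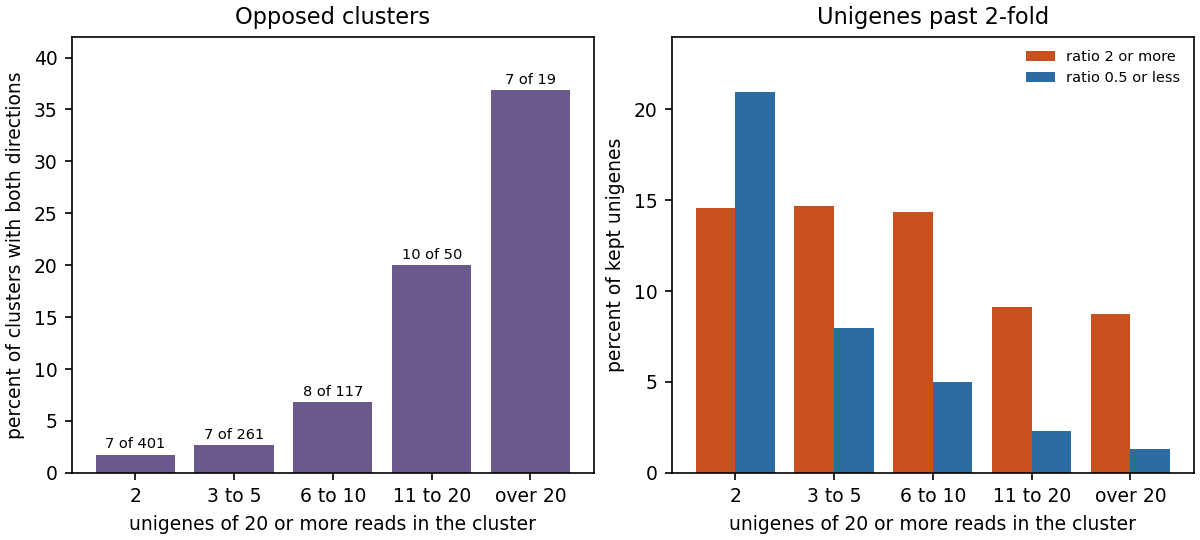
Left, percent of clusters that held a unigene of ratio 2 or more and another of ratio 0.5 or less, by the number of unigenes with 20 or more reads in the cluster, with the counts above the bars. Right, percent of all such unigenes past 2-fold in each direction in the same classes. Opposed clusters made up 1.75% of clusters with 2 kept unigenes and 36.8% of those with more than 20, an order that the rule itself favours, while unigenes lower in W made up 20.9% and 1.29%.

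Many members lay close to the minimum of 20 reads. Over both libraries the higher members had a median of 34 reads and the lower members 27.5. The 66 higher members had 14 to 349 reads in W, with a median of 25, and 2 to 27 reads in H, with a median of 10. The 44 lower members had 1 to 65 reads in W, with a median of 6.5, and 14 to 268 reads in H, with a median of 21. All members had reads in both libraries. Their ratios, here and below without the added reads, had a median of 2.40 and a highest value of 44.5 among the higher members, and a median of 0.383 and a lowest value of 0.0190 among the lower members. With the added reads, 40 of the higher members lay under 2.5-fold and 11 at 4-fold or more, against 22 and 9 of the lower members. Summed over members, the higher ones had 2219 reads in W and 759 in H, and the lower ones 400 in W and 1491 in H.

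**Figure D2:**
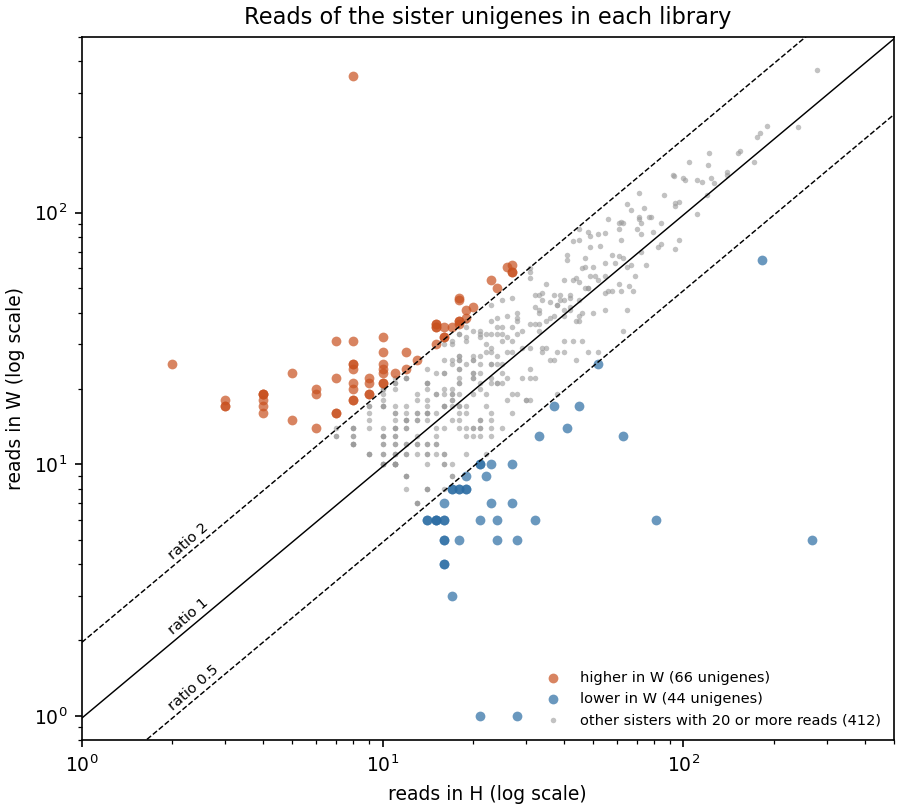
Reads of each unigene in W (vertical, log scale) against H (horizontal, log scale) for the 66 members higher in W, the 44 members lower in W and the 412 other sisters with 20 or more reads. Lines mark ratios of 2, 1 and 0.5 at the depth of the libraries. The member highest in W had 349 reads there and 8 in H, and another had 5 reads in W and 268 in H, the most of any member in H.

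Counting error alone was large for many of them. Exact (Clopper-Pearson) 95% intervals of the ratio, which cover counting error only as the cDNA was amplified and carried no molecular identifiers, lay wholly above 1 for 55 of the 66 higher members and wholly below 1 for 27 of the 44 lower members. These are 83.3% of the higher and 61.4% of the lower members. Among all kept unigenes, 11.2% had a ratio of 2 or more with an interval above 1, which is 83.2% of those at 2 or more, and 18.5% had a ratio of 0.5 or less with an interval below 1, which is 90.5% of those at 0.5 or less. Lower members were thus clear of 1 less often than the lower unigenes of the whole table, a description with no test, and they had a median of 27.5 reads against 39. The whole table also holds unigenes alone in their cluster, which cannot be members. The share for clusters with 2 or more kept unigenes is not given here. In 24 of the 39 clusters at least 1 member in each direction had such an interval. As the same reads chose the members, their intervals tend to lie further from 1. This count and later counts of clear intervals are therefore descriptions. In 0 of the 39 did the intervals clear 2-fold in both directions. With 1 read fewer in W for the higher members, or 1 more for the lower members, 24 of the 110 would not have passed the threshold. Just inside it were Cluster64409.seq.Contig64, with 24 reads in W and 12 in H (ratio with added reads 2.00073), and Cluster64088.seq.Contig43, with 26 and 13 (2.00375). Just outside on this side were Cluster64415.seq.Contig122 and Cluster64253.seq.Contig28, each with 22 reads in W and 11 in H (1.99718). On the other side, Cluster64294.seq.Contig11 and Cluster64370.seq.Contig47, each with 10 reads in W and 21 in H (0.49852), were just inside, and Cluster64251.seq.Contig50, with 12 and 25 (0.500382), and Cluster64367.seq.Contig58, with 19 and 38 (0.517), just outside.

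By size the clusters fell into 8 with 2 to 8 unigenes and 31 with 13 to 168, a division made after the values had been seen. In the 8 small clusters the members held 77.2% of the cluster's reads, 1623 of 2103, and in all 8 an interval lay clear of 1 in both directions. In the 31 large clusters the members held 7.85%, 3246 of 41332 reads, and 16 of the 31 had clear intervals in both directions. The small clusters are described first.

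Cluster63179 had the widest gap between sisters. It consists of 2 unigenes of nearly the same length. Cluster63179.seq.Contig2 (2142 bp) had 349 reads in W and 8 in H, a ratio of 44.5 (95% interval 22.4 to 104). Cluster63179.seq.Contig1 (2018 bp) had 14 reads in W and 41 in H and was 2.87-fold lower in W (95% interval 1.53 to 5.70). Contig2 held 96.1% of the cluster's 363 reads in W (95% interval 93.6 to 97.9%) and 16.3% of its 49 reads in H (7.32 to 29.7%). The main transcript of the cluster was thus Contig2 in W and Contig1 in H. This is a description, since the rule asks for opposite ratios of sisters. Scaled to length and library (RPKM, on the reads in unigenes), the level of Contig2 was 385 in W and 8.64 in H, and that of Contig1 was 16.4 in W and 47.0 in H. With all reads added up the cluster was higher in W by a ratio of 7.56 (95% interval 5.60 to 10.4), while its second sister was lower.

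Cluster63696 went the other way. Of its 5 unigenes, Cluster63696.seq.Contig5 (727 bp) had 5 reads in W and 268 in H, 52.5-fold lower in W (95% interval 22.2 to 163), and Cluster63696.seq.Contig4 (840 bp) had 13 and 63 reads, 4.75-fold lower (2.59 to 9.40). Cluster63696.seq.Contig3 (1176 bp) had 35 reads in W and 16 in H, a ratio of 2.23 (1.20 to 4.32). The fourth kept sister, Cluster63696.seq.Contig2 (886 bp), had 15 and 11 reads, a ratio of 1.39. The 2 lower members held 24.3% of the cluster's 74 reads in W (95% interval 15.1 to 35.7%) and 89.9% of its 368 reads in H (86.4 to 92.8%). Contig3 held 47.3% in W (35.6 to 59.3%) and 4.35% in H (2.51 to 6.96%). The sum of the cluster was 4.87-fold lower in W (95% interval 3.79 to 6.34), while Contig3, the longest of its 4 kept unigenes, was more abundant in W. With the added reads Contig3 had a ratio of 2.20, but 1.96 with median-ratio scaling and 1.91 with TMM, a scaling by trimmed means, and under these Cluster63696 was no longer opposed.

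Cluster62492 is a pair as well. Cluster62492.seq.Contig1 (688 bp) had 31 reads in W and 7 in H, a ratio of 4.52 (95% interval 1.95 to 12.2). Cluster62492.seq.Contig2 (954 bp) had 6 reads in W and 81 in H and was 13.2-fold lower in W (5.82 to 37.1). Contig1 held 83.8% of the cluster's reads in W (95% interval 68.0 to 93.8%) and 7.95% in H (3.26 to 15.7%). The main transcript again differed between W and H, which is a description under the same rule. The cluster as a whole was 2.33-fold lower in W (1.57 to 3.52), with 37 reads in W and 88 in H.

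In Cluster60934 the sisters went in opposite directions while their sum had a ratio close to 1. Cluster60934.seq.Contig1 (1172 bp) had 62 reads in W and 27 in H, a ratio of 2.34 (95% interval 1.47 to 3.83), and Cluster60934.seq.Contig2 (1251 bp) had 17 and 45 reads, 2.59-fold lower (1.46 to 4.83). The sum was 79 reads in W and 72 in H, a ratio of 1.12 whose interval of 0.803 to 1.56 holds 1. Contig1 held 78.5% of these reads in W (67.8 to 86.9%) and 37.5% in H (26.4 to 49.7%). Neither sister's interval holds 1, whereas that of their sum does, which is a description, since the rule chose the sisters for opposite ratios.

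Cluster61488 and Cluster61919 also had sums whose intervals hold 1, but these intervals are wide. In Cluster61488, Contig5 (1916 bp) had 20 reads in W and 6 in H, a ratio of 3.40 (95% interval 1.32 to 10.4), and Contig1 (1843 bp) had 13 and 33, 2.49-fold lower (1.27 to 5.15), while all 5 unigenes together had 35 and 44 reads. In Cluster61919 the 3 kept sisters are sequences that Cap3 left as singlets. Cluster61919.seq.Singlet8 (1414 bp) had 28 reads in W and 12 in H, a ratio of 2.38 (1.17 to 5.14). Cluster61919.seq.Singlet7, of almost the same length (1406 bp), counted 6 in W and 32 in H, 5.22-fold lower (2.15 to 15.3). The third, Cluster61919.seq.Singlet1 (853 bp), had 21 and 10 reads, a ratio of 2.14 with an interval of 0.966 to 5.10 that holds 1. The summed ratios were 0.812 (0.506 to 1.30) for Cluster61488 and 0.951 (0.673 to 1.34) for Cluster61919.

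The last 2 small clusters each held a sister between the thresholds beside the opposed pair. In Cluster63415, Contig4 (2958 bp) had 22 reads in W and 7 in H, a ratio of 3.21 (95% interval 1.32 to 8.89). Contig6 (2246 bp) had 5 and 28, 5.49-fold lower (2.09 to 18.2). Contig2 (1528 bp) had 10 and 11, a ratio of 0.928 (0.353 to 2.41). In Cluster64141, Contig5 (1232 bp) had 65 reads in W and 182 in H, 2.74-fold lower (2.06 to 3.70), Contig4 (983 bp) had 30 and 15, a ratio of 2.04 (1.06 to 4.08), and Contig6 (2024 bp) had 159 and 171, a ratio of 0.949. Their summed ratios were 0.740 (0.503 to 1.08) and 0.719 (0.611 to 0.844). In Cluster64141 the lower member stayed above the higher one in RPKM in both libraries, at 125 against 72.1 in W and 342 against 35.3 in H, so their order was the same and the gap smaller in W. The higher member of Cluster64141 passed with a ratio of 2.01 and fell short under all 3 other scalings, the RPM library size (1.92), median-ratio scaling (1.79) and TMM (1.75).

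**Figure D3:**
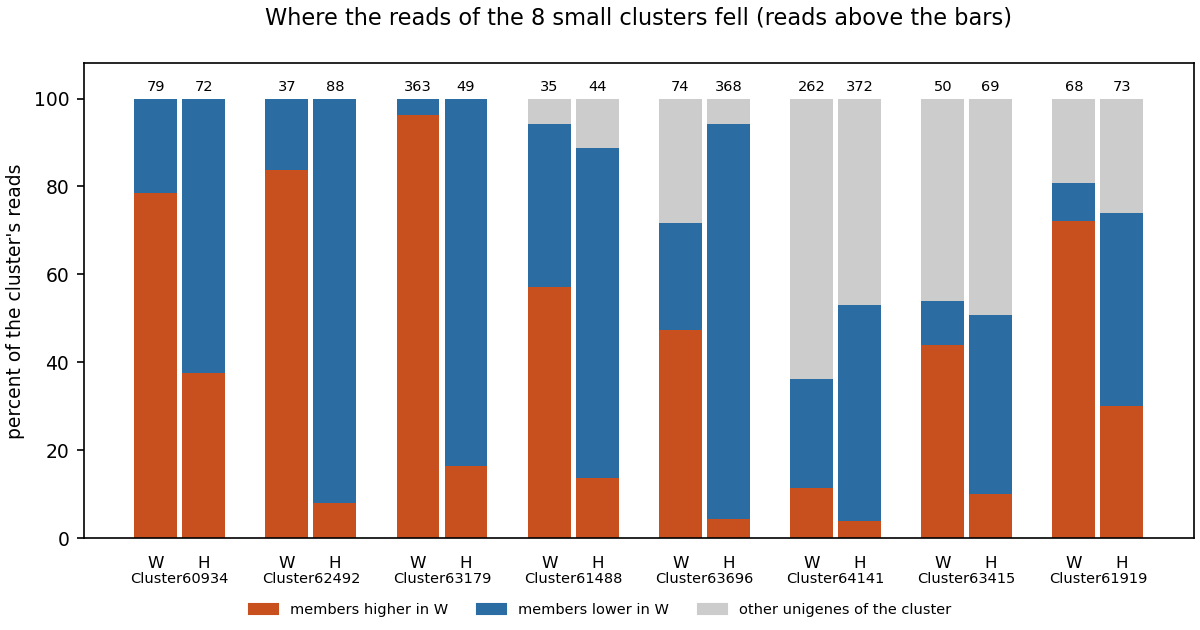
Percent of each small cluster's reads that fell in members higher in W, members lower in W and its other unigenes, with W left and H right in each pair and the number of reads above each bar. In Cluster63179 the higher member took 96.1% of the reads in W and 16.3% in H, and in Cluster62492 83.8% and 7.95%. In Cluster64141 most of the W reads lay in other unigenes.

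The 31 large clusters held 1768 unigenes, of which 501 were kept, 57 were higher members, 35 lower members and 409 lay between the thresholds. In 4 of them, Cluster63320, Cluster63463, Cluster63778 and Cluster63999, all kept unigenes were members. All 31 had a summed ratio above 1, from 1.01 to 1.64 with a median of 1.31, but with the library size from the deposited RPM this held for 28, with median-ratio scaling for 26 and with TMM for 25. The interval of the sum lay above 1 in 25 clusters, and in 20, 13 and 9 under the same 3 scalings. None of the 31 had a sum past 2-fold. Over all 39 clusters, the 412 sisters between the thresholds had 16118 reads in W and 14185 in H, a summed ratio of 1.16 (95% interval 1.13 to 1.19), and the 1283 sisters below the minimum of 20 reads had 4598 and 3665, a summed ratio of 1.28 (1.23 to 1.34). Of the 412, 279 had a ratio above 1 and 133 under 1, against 214 and 198 with TMM, and the intervals of 45 lay clear of 1.

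Among the large clusters, the lowest ratios of members were in Cluster64026 and Cluster64344. Cluster64026.seq.Contig49 (1049 bp) had 1 read in W and 28 in H, which gives 0.0365 (95% interval 8.92e-04 to 0.221). The remaining 5 kept sisters of this cluster of 59 unigenes all had more reads in W, up to Cluster64026.seq.Contig4 (3195 bp) with 21 and 8 reads (ratio 2.68, 1.14 to 6.995). In Cluster64344, of 73 unigenes, Contig33 (1020 bp) had 1 read in W and 21 in H, a ratio of 0.0486 (0.00118 to 0.302), and its higher sister Contig56 (2623 bp) had 21 and 9, a ratio of 2.38 (1.05 to 5.91). The summed ratios were 1.64 (1.36 to 1.98) and 1.32 (1.16 to 1.502). Both low members were much shorter than their higher sister.

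The highest ratio of a member among the large clusters was in Cluster64381, which also had the most members. Cluster64381.seq.Contig110 (1233 bp) had 25 reads in W and 2 in H, a ratio of 12.8 (95% interval 3.18 to 111). The other 5 higher members of this cluster of 147 unigenes lay between 2.19 and 2.38, among them the longest member of all, Cluster64381.seq.Contig81 (3869 bp), with 58 reads in W and 27 in H. Its only lower member, Cluster64381.seq.Contig125 (1967 bp), had 8 and 17 reads, 2.08-fold lower with an interval of 0.851 to 5.57-fold that holds 1. The lower side of this cluster thus lay within counting error. The same holds for Cluster64415, with 4 higher members between 2.33 and 2.86 and 1 lower member, Contig73, of 8 and 17 reads, and for Cluster64374, whose lower members Contig44 and Contig47 had 7 and 16 and 6 and 15 reads in W and H.

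In 5 more of the large clusters named here the intervals lay clear of 1 in both directions. In Cluster64088, Contig29 (885 bp) had 19 reads in W and 4 in H, a ratio of 4.85 (95% interval 1.61 to 19.6), and Contig30 (1371 bp) had 5 and 24, 4.70-fold lower (1.76 to 15.8), and with the added reads this was the only large cluster with members at 4-fold or more both ways. In Cluster63883, Contig27 (1374 bp) had 16 and 4 reads, a ratio of 4.08 (1.32 to 16.8), and Contig26 (1885 bp) had 3 and 17, 5.55-fold lower (1.61 to 29.6). In Cluster64114, 4 higher members had ratios from 2.10 to 3.19, led by Contig18 (1869 bp) with 25 and 8 reads, against Contig20 (1299 bp) with 4 and 16, 3.92-fold lower (1.26 to 16.1). In Cluster64360, Contig19 (2016 bp) with 61 and 26 reads and Contig25 (1237 bp) with 50 and 24 were higher, at 2.40 (1.49 to 3.95) and 2.13 (1.28 to 3.62), against Contig9 (926 bp) with 10 and 23, 2.25-fold lower (1.03 to 5.30). Cluster64409, the richest in kept unigenes with 50, had 46 of them between the thresholds, and its only lower member, Contig57 (1046 bp), had 17 and 37 reads, 2.13-fold lower (1.17 to 4.04).

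The remaining 21 large clusters held 53 members. Their 29 higher members had 15 to 58 reads in W (median 23) and 3 to 27 in H (median 9), with ratios from 2.04 to 6.12 and a median of 2.45. Their 24 lower members had 4 to 25 reads in W (median 6.5) and 14 to 52 in H (median 18.5), with ratios from 0.255 to 0.491 and a median of 0.408. The intervals of 23 higher and 11 lower members lay clear of 1, and 9 of the 21 clusters had such a member in each direction. The other 13 lower members lay within counting error.

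**Figure D4:**
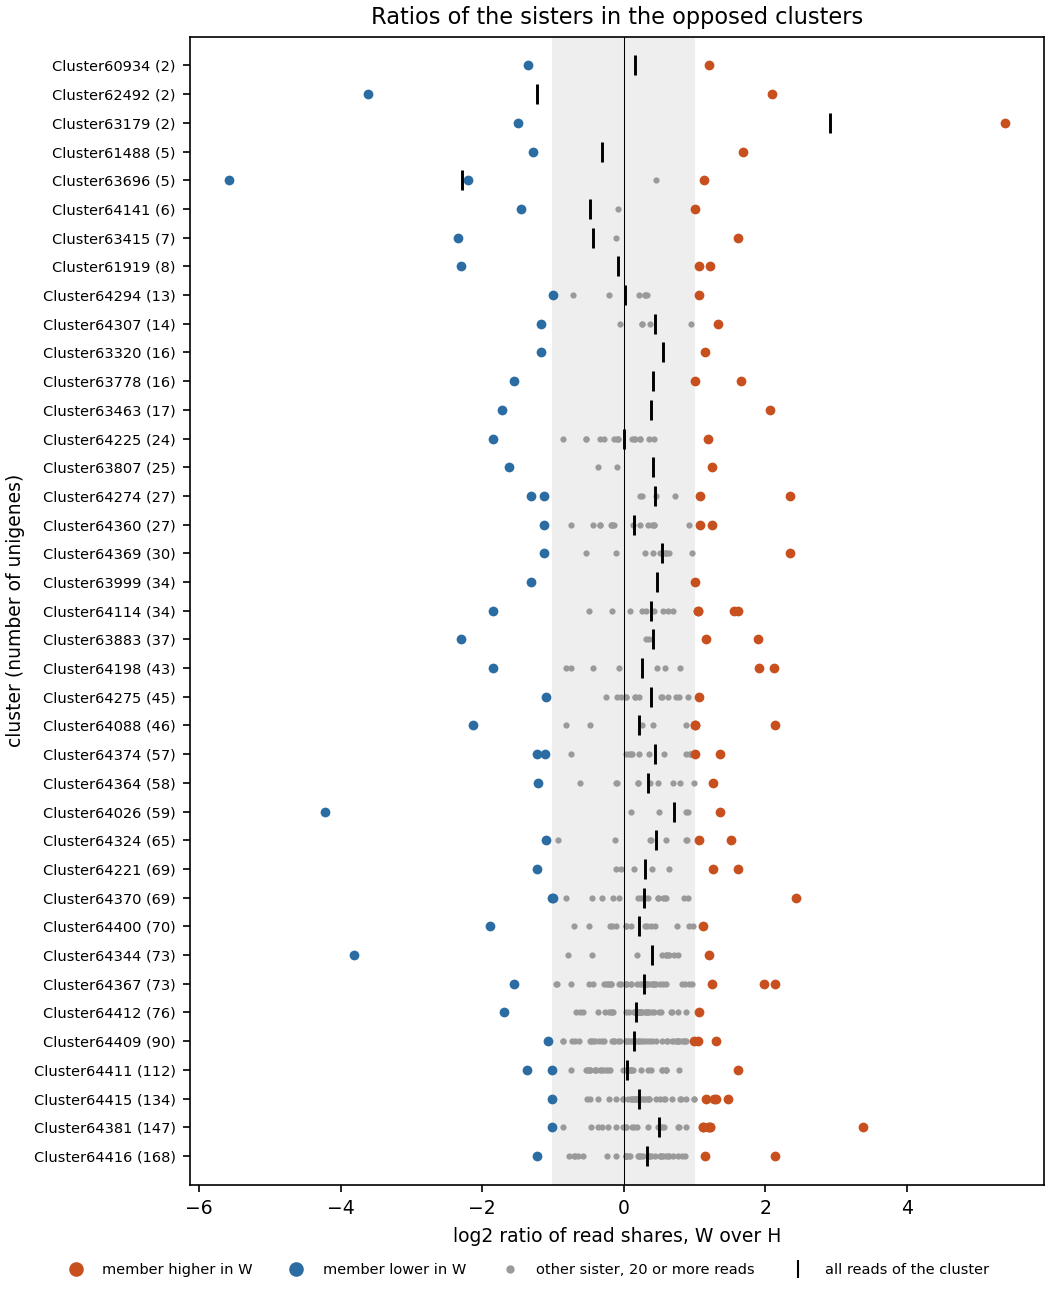
log2 ratio of W over H, with 0.5 reads added, of every unigene with 20 or more reads in the 39 clusters, which run down the page by their number of unigenes. Coloured points are members, grey points are other sisters inside the shaded 2-fold range, and the black bar is the log2 ratio of all reads of the cluster. The summed ratios of the 31 clusters with 13 or more unigenes lie between 1.01 and 1.64, while those of the 8 small clusters run from 0.205 to 7.56.

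Added up over a cluster, the reads mostly differed by less than 2-fold. Of the 39 sums, 36 (also 36 under each of the 3 scalings) had a ratio between 0.5 and 2, from 0.719 to 1.64, and only those of Cluster63179, Cluster63696 and Cluster62492 lay outside. By the rule, members lie on both sides of 1 and partly offset each other in a sum. In the large clusters the members held only 7.85% of the reads. The same share is not given for the other clusters with 2 or more kept unigenes, so this count is a description. Without correction for the shift in the middle of the transcripts, the intervals of 26 sums lay above 1. Those of 3 lay below 1, and those of 10 held 1. Among the large clusters, intervals above 1 fell from 25 to 13 with median-ratio scaling and to 9 with TMM. Together the 39 clusters had 23335 reads in W and 20100 in H, 5.51% and 4.65% of the reads in unigenes. Their ratio was 1.19 (95% interval 1.16 to 1.21), also without this correction. The members made up 11.2% of these reads.

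The order of the extreme sisters in each library is given as a description, since a rule that asks for opposite ratios largely sets an exchange between sisters of like abundance. Comparing in each cluster the member of highest ratio with that of lowest ratio, in RPKM, the member of highest ratio was the more abundant in W and the less abundant in H in 36 of 39 clusters. In Cluster64400 the higher member was the more abundant in both libraries, and in Cluster64141 and Cluster64409 the less abundant in both. The gap between the log2 ratios of these 2 sisters ran from 2.07 in Cluster64294 to 6.88 in Cluster63179, with a median of 3.04. This gap does not change with the library sizes used, since they cancel between sisters. As the rule sets a smallest gap, its size is a description.

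Length was not used by the rule. The higher members had a median of 1567 bp (688 to 3869 bp) and the lower members 1288.5 bp (727 to 2690 bp). Of the higher members 24 of 66 reached 2000 bp, and of the lower members 4 of 44. In 25 of 39 clusters the higher members were longer at the median, and in 14 they were shorter, with a median difference within clusters of 267 bp and a range of -588 to 2269 bp. In the 8 small clusters the count was 4 of 8. Among all kept unigenes the same order was present, with 1519 bp for the 1121 of ratio 2 or more, 1318.5 bp for the 1710 of ratio 0.5 or less and 1494.5 bp for the 5510 between. Sisters are not replicates, so no test was made, and the part of length in the directions was not tested.

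**Figure D5:**
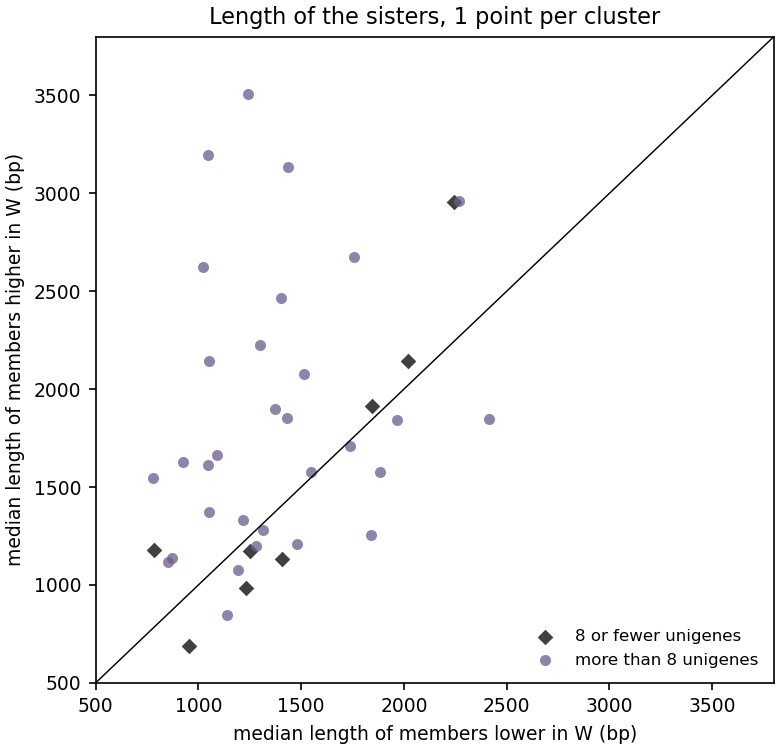
Median length in bp of the members higher in W (vertical) against that of the members lower in W (horizontal), 1 point per cluster, with the line of equal length. Points lie above the line in 25 clusters and below it in 14, and the small clusters, drawn as diamonds, split 4 and 4.

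No member has a gene name in the sources used here. The study lists identifiers for the calcium and MAPK (mitogen-activated kinase) cascades, relays by which plant cells pass on a wound signal, and for regulators and enzymes used in its expression assays. These lists named 85 clusters, of which only 4 had 2 or more kept unigenes and so could be opposed. Of the 85, 0 were among the 39 opposed clusters, and nothing is read from this at an opposed share of 4.60% of such clusters. The functions of the members, those of Cluster63179 and Cluster63696 included, were not analysed here.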

How the data were processed

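The authors made SMART cDNA from pooled stems, amplified it by long-distance PCR of 25 cycles, sequenced both libraries by GS-FLX pyrosequencing, removed reads under 100 bp, and assembled all reads with MIRA, UIcluster 2.0 and Cap3. For MIRA and for Cap3 the version is not given in the sources used here. The deposited count of each unigene is its number of reads, unnormalized. The deposited RPM (labelled TPM in the files) equals the count plus 1, scaled by the number of high-quality reads, in 100% of unigenes within 0.05 and was used only to obtain that library size as an alternative. By that size 22.0% of W reads and 18.5% of H reads lay outside the unigenes. A floor for 0 reads was not needed, since every member had reads in both libraries.

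The shares, ratios and exact 95% intervals were computed from the counts. A chi-square test, the authors' method, was not run because the same counts chose the members. A quasi-likelihood fit needs replicates. Members, gene lists and rules were chosen with earlier results of these data known. Clusters were named if they were among the 8 widest, the 8 with most member reads or the 5 with most members, and the unigenes nearest the thresholds were named too. The other small clusters, and the large clusters named in counts of 5 or fewer, were named after their values were seen. The code for the interval and the rule was checked on simulated counts. The planted changes there were larger, and in unigenes with more reads, than those of most members. How many clusters become opposed by counting error alone was not counted, so this check says nothing about the members. TMM factors came from edgeR 4.0.16 in R 4.3.3. Intervals came from scipy 1.17.1, tables from pandas 2.3.3 with numpy 2.4.6, and plots from matplotlib 3.10.9, all under Python 3.11.15.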

Additional observations from a re-analysis of the deposited data

How the results depend on the processing

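The number of opposed clusters depended on the settings. It was 39 in the main setting and also with the library size from the deposited RPM and with Cluster64407 kept, 45 with median-ratio scaling, 45 with TMM, 41 with no reads added and 33 with 1 read added. These scalings moved log2 ratios by -0.06 (RPM), -0.17 (median ratio) and -0.20 (TMM), and 30 of the 39 clusters stayed opposed under all 3, 20 of them with intervals clear of 1 in both directions. Of the small clusters, Cluster63696 and Cluster64141 did not stay. With TMM 63 members were higher and 59 lower, and 73 of these 122 were among the 110. The minimum of reads and the fold mattered most. A minimum of 10 reads gave 217 clusters with 650 higher and 331 lower members, no minimum gave 1362 with 6756 and 4107, and a minimum of 50 gave 4 with 4 and 5 (Cluster60934, Cluster63179, Cluster63696 and Cluster64409). A fold of 1.5 gave 132 clusters with 407 and 190, and a fold of 4 gave 2 with 2 and 2 (Cluster62492 and Cluster64088). With an interval on the same side of 1 there were 24 clusters with 35 and 26. The number of sums within 2-fold was 36 under each scaling. The log2 ratios of the 48 named members and the spans of the 14 named clusters stayed within their counting error with 1 read added, and so did the named members under each scaling. Of the 39 summed log2 ratios, 12 moved outside their interval with median-ratio scaling and 16 with TMM, and among these some whose interval lay above 1 changed sign, Cluster64409 at -0.015 with median-ratio scaling and -0.048 with TMM, and Cluster64412 at -0.031 with TMM. No paired analysis was possible because each condition has 1 library. Most members had under 50 reads, which limits the precision of their ratios.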
